A study of Homo sapiens with 31 samples.

Results

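miR-21-5p is the mature miRNA cut from the 5′ arm of the MIR21 hairpin. Its interactions were all rows of the deposited Huh-7.5 table whose miRNA was hsa-miR-21-5p, which were 651 of 32712 (1.99%, 95% Wilson interval 1.84 to 2.15) over 542 miRNAs. They held 710 of 35811 chimeric reads and fell at 398 genes. The rule used the name of the miRNA alone and no value of seeds, duplexes, classes, reads or places. Seed matches, duplexes and classes still depend on the sequence of the miRNA. How often they would arise by chance for that sequence was not tested.

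The samples were 31 libraries of AGO-bound RNA from Huh-7.5, an established human hepatoma cell line. Argonaute (AGO) was cross-linked to its RNA with ultraviolet light and purified, and a miRNA joined to the fragment next to it was read as 1 chimeric sequence. By the standard protocol (std. AGO-CLIP) 19 libraries were made, of which 7 had no treatment named, 4 were Mock, 4 had received LNA-122 and 4 miravirsen, both of them oligonucleotides against miR-122. By CLEAR-CLIP 12 libraries were made, 2 each of RNAse A (low) with T4 RNA ligase, RNAse A (low) without it, RNAse A (low) with HSPC117 siRNA, RNAse A (low) with HSPC117 over-expression, RNAse A (high) with HSPC117 over-expression and RNAse T1 with HSPC117 over-expression, the last 4 kinds without T4 RNA ligase. HSPC117 is an RNA ligase of human cells that acts in tRNA splicing. All libraries came from 1 cell line, and the 1 table pooled over them names no library for any interaction. Libraries and treatments could therefore not be compared, no replicate error exists, and every interval and p-value below covers the sampling of interactions only. The exception is values weighted by reads, where reads were counted as separate units although reads of 1 interaction are not independent.

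A miRNA guides AGO to RNAs that it pairs with, most often through its seed, the bases from the second to the eighth. The canonical matches to a seed are, from longest to shortest, the 8mer, the 7mer-m8, the 7mer-A1, the 6mer and the offset 6mer, and pairing beyond the seed is called auxiliary. miR-21-5p is abundant in many tumours, hepatocellular carcinoma among them, and is known for repressing tumour suppressors such as PDCD4.

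The mature sequence is shown with seed bases 2 to 8 in capitals, together with that of miR-590-5p, the 1 other mature miRNA of the RefSeq table with the same 7 bases there. Both are RefSeq sequences of build GRCh38.p14, at chr17:59841273-59841294 (+) and chr7:74191213-74191234 (+).
hsa-miR-21-5p: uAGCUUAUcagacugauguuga
hsa-miR-590-5p: gAGCUUAUucauaaaagugcag
The seed of miR-21-5p holds 2 G or C bases of 7, and the whole miRNA 8 of 22. None of the 32712 interactions was of miR-590-5p, and a count of 0 there allows at most 0.00917%. The other arm of the hairpin, miR-21-3p, had 39 interactions (0.119%, 0.0872 to 0.163), against the 651 of miR-21-5p.

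By number of interactions, miR-21-5p ranked 13 of 542. Next above it stood miR-30a-5p with 672 interactions (2.05%, 1.91 to 2.21) and next below it miR-93-5p with 646 (1.97%, 1.83 to 2.13). The intervals of all 3 overlapped, so their order was not resolved at this depth.

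Most miR-21-5p interactions lacked a canonical seed match. Such a match was present in 106 of 651 (16.3%, 13.6 to 19.3), against 9833 of 32061 interactions of all other miRNAs (30.7%). Each of the 5 canonical kinds was less frequent than in the rest. The 8mer was found in 24 interactions (3.69%, against 6.78% in the others), the 7mer-m8 in 30 (4.61% against 7.63%), the 7mer-A1 in 20 (3.07% against 5.24%), the 6mer in 20 (3.07% against 5.81%) and the offset 6mer in 12 (1.84% against 5.21%). More frequent were seeds with 1 mismatch, at 233 interactions (35.8%, 32.2 to 39.5, against 29.7%), seeds with 1 bulged base, at 140 (21.5%, 18.5 to 24.8, against 16.9%), and target regions with no match of the kinds listed in the file, at 126 (19.4%, 16.5 to 22.6, against 15.0%). Other short matches were present in 46 (7.07% against 7.74%).

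Each group was tested by a two-sided Fisher's exact test for 83 miRNAs with at least 50 interactions against all others, adjusted by Benjamini-Hochberg over 830 pairs and called at an adjusted p below 0.05. In that family 13% of pairs were called higher and 15.4% lower, and for miR-21-5p 3 of 10 groups were called higher and 6 lower. These calls are not independent, since any canonical match covers all the canonical kinds and the remaining groups are what is left. The adjusted p was 4.4e-15 for any canonical match, 2.2e-04 for the offset 6mer, 0.0061 for mismatched seeds and 0.045 for the 7mer-A1. The last was lost, at an adjusted p of 0.053, without the mitochondrial genome and, at 0.058, when interactions of a miRNA with an identical predicted duplex and energy were counted once. Without places shared with other miRNAs the 7mer-m8 (adjusted p 0.070), the 7mer-A1 (0.13) and the 6mer (0.052) did not pass. Weighted by reads, the group with no match did not pass (0.057), and 8mers made up 7.75% of miR-21-5p reads against 7.46% of the others, with an adjusted p of 0.87. Of the 55 reads at 8mers, 38 were held by 7 interactions described below.

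**Figure D1:**
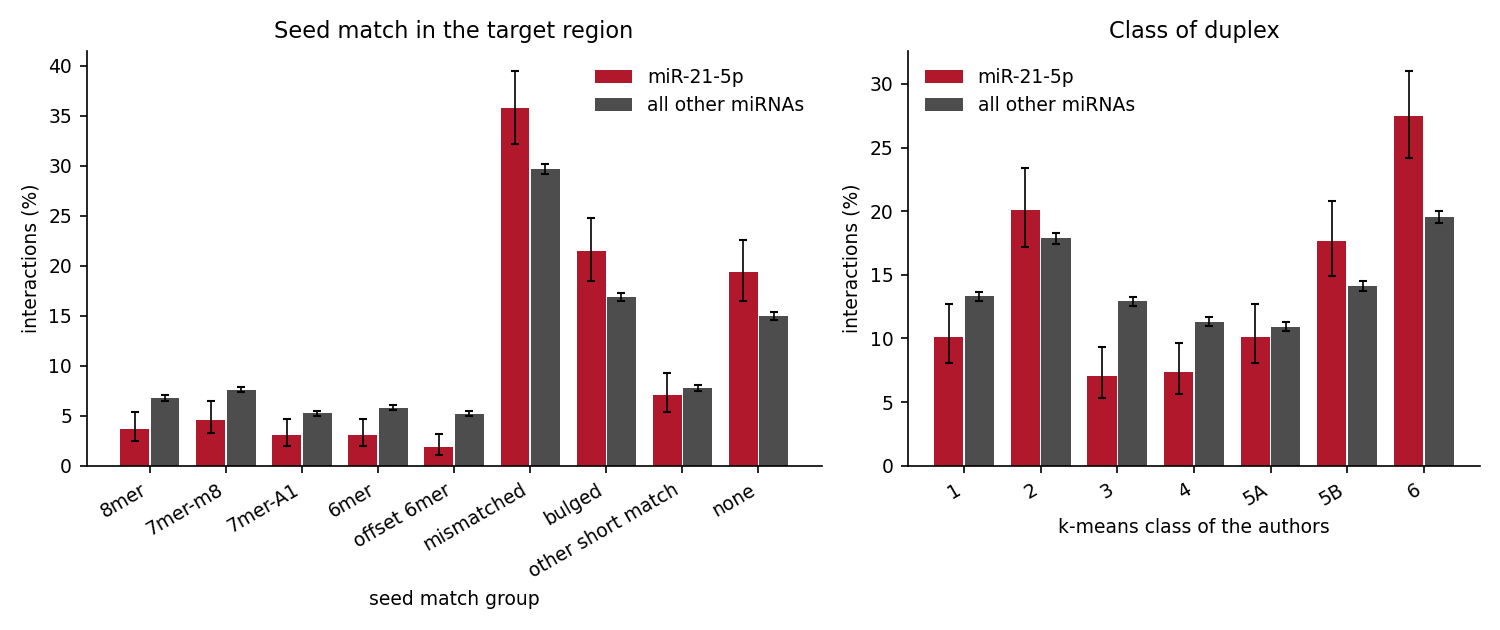
Share of interactions (%) by seed match group (left) and by class of duplex (right), for the 651 interactions of miR-21-5p and the 32061 of all other miRNAs, with bars for 95% Wilson intervals. The red bars stand below the grey ones in all 5 canonical groups and above them for mismatched, bulged and absent seeds.

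Among the 83 miRNAs the canonical share ran from 1.33% to 62.3%, with a median of 28%, and miR-21-5p ranked 14 from the lowest. Its neighbours in that order were miR-455-3p with 30 of 180 (16.7%, 11.9 to 22.8) above and miR-19b-3p with 26 of 160 (16.2%, 11.3 to 22.7) below, whose intervals overlapped its own. Of the 70 tested miRNAs with a RefSeq sequence, 9 had 2 G or C bases in the seed, and the median canonical share of the 9 was 25.5%. The interval of miR-21-5p, the lowest of them, overlapped that of miR-30a-5p, the next (19.6%, 16.8 to 22.8). Over the 70, the G or C content of the seed ran only weakly with the canonical share (Spearman's rho 0.11, a description over miRNAs of the same libraries).

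**Figure D2:**
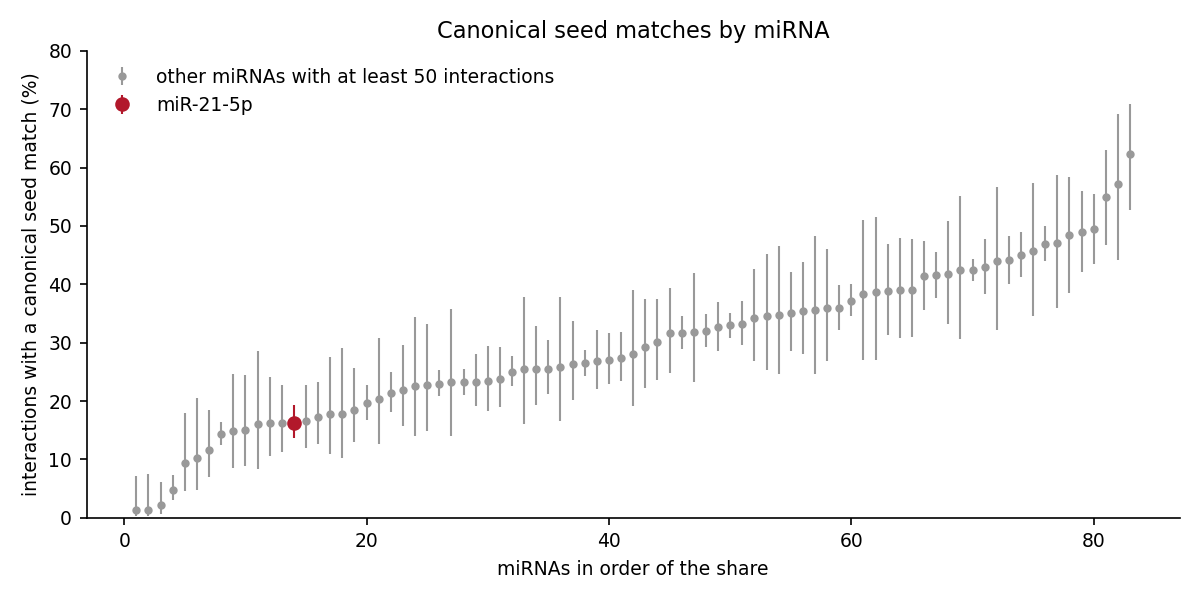
Share of interactions with a canonical seed match (%) for each of the 83 miRNAs with at least 50 interactions, in order of that share, with lines for 95% Wilson intervals. miR-21-5p (red, 16.3%) stands at place 14 from the lowest.

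The lower canonical share was seen in each of the large transcript regions. In 3′UTRs 22 of 73 miR-21-5p interactions were canonical (30.1%, 20.8 to 41.4, against 42.0% of other miRNAs), in coding sequence 14 of 101 (13.9%, 8.44 to 21.9, against 32.5%), in introns 30 of 226 (13.3%, 9.46 to 18.3, against 30.8%) and in deep intergenic places 26 of 161 (16.1%, 11.3 to 22.6, against 25.1%). These values within regions are descriptions. Within 3′UTRs alone, where a fit over seed groups was made, 0 of 10 groups passed for miR-21-5p.

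Pairing along the miRNA was read from the authors' RNAhybrid maps, which start at position 2, with G:U pairs counted as paired. All 1240 G:U pairs in the 651 maps fell where miR-21-5p carries a G or a U. The authors had forced seed pairing in the prediction where a match was present. For mismatched 8mer, 7mer and 6mer seeds and bulged 8mer and 7mer seeds they forced positions 3 and 4 or 5 and 6. Seed values therefore follow in part from those settings.

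Within the seed, miR-21-5p was paired less often than other miRNAs at positions 2 and 7. Position 2 was paired in 324 of 651 interactions (49.8%, 45.9 to 53.6), against 56.9% of the others, and position 7 in 423 (65.0%, 61.2 to 68.5), against 77.2%. In the seed, positions 3 and 4 were paired more often, at 87.1% against 80.6% and 89.9% against 84.4%. The adjusted p by Fisher's exact test over 1642 pairs of miRNA and position was 9.2e-04 at position 2 and 2.4e-11 at position 7.

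Beyond the seed, miR-21-5p was paired more often than other miRNAs at 7 positions. Position 11 was paired in 71.1% of interactions (67.5 to 74.5) against 58.0%, position 13 in 72.5% against 62.9%, position 14 in 78.0% against 68.1% and position 15 in 78.8% against 70.3%. Smaller differences passed at position 9 (63.0% against 57.9%), at position 18 (76.3% against 71.6%) and at position 20 (75.7% against 69.2%). The adjusted p was 5.0e-11 at position 11 and 1.5e-07 at position 14, and 0.020 at position 9. Weighted by reads, position 9 did not pass (adjusted p 0.58), and position 18 stood at 72.3% in both. Position 22, the last of miR-21-5p and outside the range tested, was paired in 195 of 651 (30%, 26.6 to 33.6), against 40.2% of the others with a map that reached it. In the family 30.8% of pairs were called higher and 26.9% lower, so the 9 higher and 2 lower calls among 20 positions of miR-21-5p stand beside a background in which calls were common.

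G:U pairs carried part of this. With Watson-Crick pairs alone, position 3 stood at 71.0% against 74.6% and position 18 at 60.5% against 64.4%, both reversed, and positions 2, 15 and 20 no longer passed. Position 7 stayed lower, and positions 11, 13 and 14 stayed higher. Among the 4-base stretches from position 9 onward, positions 17 to 20 were paired most (75.2% of base positions against 71.4%), and positions 13 to 16 came to 74.3% against 67.7%.

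**Figure D3:**
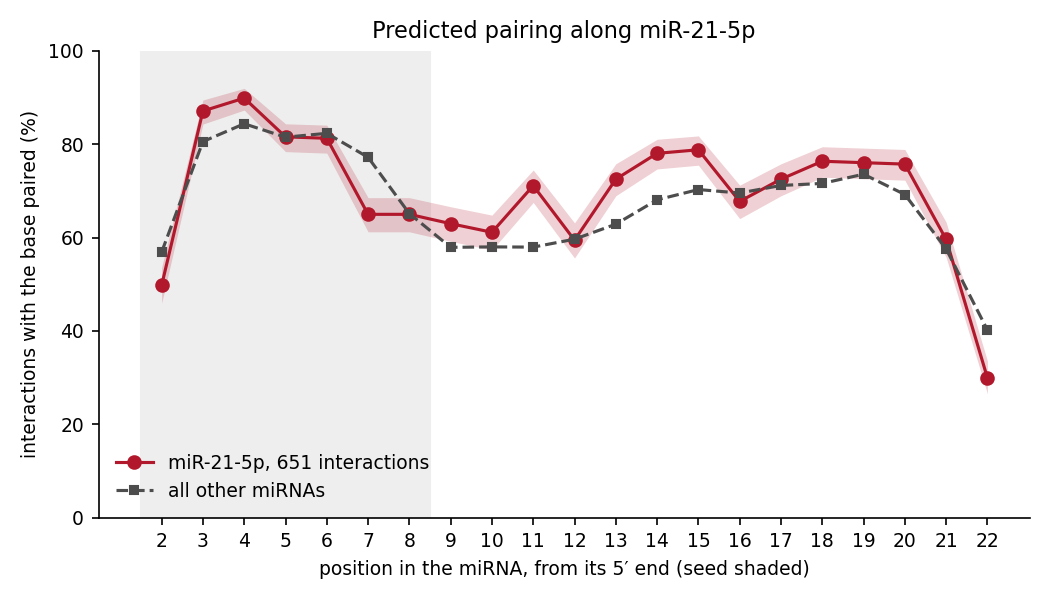
Share of interactions (%) in which each miRNA position from 2 to 22 was paired, for miR-21-5p (red, band for the 95% Wilson interval) and for all other miRNAs (grey). The red line lies below the grey one at positions 2 and 7 and above it at positions 11 and 13 to 15, and it ends below it at position 22.

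Mismatched seeds failed most often at positions 4 and 7. Of the 233 mismatched seeds, the mismatch lay at position 4 in 58 (24.9%, 19.8 to 30.8, against 19.8% of mismatched seeds of other miRNAs) and at position 7 in 57 (24.5%, 19.4 to 30.4, against 15.1%). It lay at position 5 in 34 (14.6% against 21.8%), at position 6 in 47 (20.2% against 20.3%), at position 3 in 26 (11.2% against 16.1%) and at position 2 in 11 (4.72% against 6.92%). Mismatches are written with the miRNA base first, then the position counted from the 5′ end of the miRNA, then the target base opposite, with T for U as in the file. The most frequent was A7A with 24 interactions, followed by C4A, T5T and T6C with 21 each and C4T with 19. G:U wobbles made up 39 of the 233 (16.7%, 12.5 to 22.1), namely T6G in 15, G3T in 14 and T5G in 10, against 15.8% of mismatched seeds of other miRNAs. No test was run on these positions.

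Of the 140 bulged seeds, 108 had an unpaired miRNA base and 32 an extra target base. The bulged miRNA base stood at position 4 in 33 (30.6%, 22.7 to 39.8, against 21.5% for other miRNAs), at position 7 in 27 (25%, 17.8 to 33.9, against 13.6%) and at position 3 in 24 (22.2%). Position 6 had 0 of 108, which allows up to 2.78%, against 18.9% for other miRNAs. Positions 5 and 6 of miR-21-5p hold the same base, so a bulge at either gives the same letters, and all 13 such bulges were listed at position 5. The extra target base was listed between positions 6 and 7 in 11 of 32 (34.4%, 20.4 to 51.7, against 14.4%), and it was a G in 10 of those 11.

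By their median, the predicted duplexes of miR-21-5p were among the weaker ones. The minimum free energy (MFE), which RNAhybrid gives in kcal per mol, had a median of -16.7 (quartiles -19.2 and -14.6, SD 3.52, n = 651), against -19.1 (quartiles -23.1 and -15.6, SD 5.40) over all other interactions. Among the 83 miRNAs the medians ran from -29.9 to -11.9, and miR-21-5p stood at place 14 from the weakest. Over 70 miRNAs the median MFE fell with the number of G and C bases (Spearman's rho -0.71, a description), so no test was made between miRNAs. Within miR-21-5p the median was -20.6 for the 24 8mers, -19.3 for all 106 canonical matches, -16.6 for mismatched seeds, -15.7 for bulged seeds and -16.5 with no match.

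By its mean from position 9 to 22, auxiliary pairing was no less extensive without a canonical seed than with one. There a mean of 8.92 bases were paired in canonical interactions (SD 2.24, n = 106), 9.64 in those with a mismatched seed (SD 1.94, n = 233), 9.24 with a bulged seed (SD 1.93, n = 140) and 9.72 with no match (SD 1.73, n = 126). Other short matches had 9.20 (SD 2.30, n = 46), but from position 9 to 20 they had 8.09, against 8.10 in canonical interactions. For all other miRNAs from position 9 to 22, as far as each reached, the means were 8.31 in canonical interactions, 8.97 with a mismatched seed, 8.99 with a bulged seed, 8.98 with no match and 8.41 with other short matches. The pattern was thus not particular to miR-21-5p. From position 9 to 20, which all but the shortest miRNAs have, the mean was 8.52 (SD 1.73) for miR-21-5p and 7.85 (SD 2.24) for all others. These means were not tested.

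The authors had sorted the duplexes by k-means into 7 classes of pairing, and miR-21-5p was spread unevenly over them. Class 6 held 179 of 651 (27.5%, 24.2 to 31.1, against 19.5%). Its miR-21-5p interactions had 77.8% of bases paired at positions 9 to 12, 82.1% at 13 to 16 and 79.1% at 17 to 20. Class 2 was close to it in each stretch, at 72.7%, 80.5% and 79.4%. Class 5B, with a gap at positions 9 to 12 (33.5% paired), held 115 (17.7%, 14.9 to 20.8, against 14.1%). Class 3 was lower, with 46 (7.07% against 12.9%). In it 23.4% of bases were paired at positions 9 to 12, 56.5% at 13 to 16 and 88.6% at 17 to 20. Also lower were class 4, with a mean of 1.85 paired seed bases (SD 1.53, n = 48), with 48 (7.37% against 11.3%), and class 1, with little pairing from position 17 on, with 66 (10.1% against 13.3%). Classes 2 and 5A, at 131 (20.1% against 17.9%) and 66 interactions (10.1% against 10.9%), did not pass.

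The adjusted p by Fisher's exact test over 581 pairs of miRNA and class was 6.7e-06 for class 6, 1.3e-05 for class 3, 0.0032 for class 4, 0.028 for class 5B and 0.036 for class 1. In the family 20.8% of pairs were called higher and 27.9% lower. Class 5B did not pass when each gene was counted once (adjusted p 0.054), when reads were weighted (0.20) or without places shared with other miRNAs (0.070), and class 1 did not pass without the mitochondrial genome (0.065) or against miRNAs with at least 50 interactions only (0.073). In no class did miR-21-5p reach the canonical share of other miRNAs, apart from class 4, where both were at 0. In class 6 it was 12.8% (8.72 to 18.5, n = 179) against 26.4%.

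The profile of miR-92a-3p was the most like that of miR-21-5p, with a mean absolute difference in percent paired of 6.05 points over positions 2 to 21, followed by miR-196a-5p (6.82), miR-574-5p (7.09), miR-423-3p (7.56) and miR-885-5p (7.56) among 82 miRNAs. Pearson's r over the 20 positions was 0.79 for miR-92a-3p and 0.65 for miR-196a-5p, where a shared drop at the ends of the duplex enters every pair. The seeds (capitals) of the first pair of neighbours, shown because their profiles were alike, differ from that of miR-21-5p.
hsa-miR-92a-3p: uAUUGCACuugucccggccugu
hsa-miR-196a-5p: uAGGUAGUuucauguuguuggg

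Canonical matches of miR-21-5p lay close to the ligation point. Of the 106, 89 (84.0%, 75.8 to 89.7) began in the first 37 of the 75 positions after it, with a median start at position 22 (quartiles 17 and 27.8), against 82.8% of the canonical matches of other miRNAs. The difference did not pass (adjusted p of 1 by Fisher's exact test over 83 miRNAs, where 2.41% were called higher and 2.41% lower). Mismatched seeds began there in 155 of 233 (66.5%, 60.2 to 72.3) and bulged seeds in 99 of 140 (70.7%, 62.7 to 77.6), against 59.5% and 58.9% for other miRNAs, and those were not tested.

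No transcript region passed the test for miR-21-5p. Introns held 226 (34.7%, 31.2 to 38.5, against 39.3% of the others), deep intergenic places 161 (24.7%, 21.6 to 28.2, against 23.5%), coding sequence 101 (15.5%, 12.9 to 18.5, against 12.3%) and 3′UTRs 73 (11.2%, 9.01 to 13.9, against 11.97%). Of the 20 region labels 0 passed for miR-21-5p in the Fisher's exact tests over 1660 pairs, in which 1.63% were called higher and 1.08% lower. Coding sequence and introns had unadjusted p-values of 0.016 and 0.019 and adjusted ones of 0.28 and 0.31.

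Few interactions were seen more than once. N, the number of individually cloned events, was 1 for 625 interactions, 2 for 17, 3 for 4, 4 for 1, 6 for 1, 9 for 1 and 10 for 2. N of 2 or more was thus found for 26 of 651 (3.99%, 2.74 to 5.79), against 5.02% of the others (adjusted p 0.54 by Fisher's exact test, where 6.02% of 83 miRNAs were called higher and 4.82% lower). Of the 26, 5 lay on the mitochondrial genome, beside 185 of 1611 such interactions of other miRNAs. At genes lay 11 of the 26, beside 427 of all 651. Neither share was tested.

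The most-read interactions of miR-21-5p shared a single predicted duplex. It was seen at 7 places, 1 mitochondrial and 6 nuclear, always with an 8mer starting at position 16 to 19, with an MFE of -20.8 and in class 6. These 7 held 38 of the 710 reads of miR-21-5p (5.35%) and were 5 of its 9 interactions with N of at least 3. They were also 7 of its 24 8mers. The sequence of miR-21-5p is given with the bases paired in that duplex, G:U pairs included, in capitals.
miR-21-5p in the repeated duplex: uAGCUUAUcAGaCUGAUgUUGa
The mitochondrial place, chrM:4402-4477 (+, build hg18, as are all target coordinates), had N of 10. Of the nuclear places, chrX:55223317-55223392 (-) had N of 10, chr7:57257992-57258067 (+) N of 9, chr1:554814-554889 (+) N of 4 and chr17:19447249-19447324 (+) N of 3, while chr10:71025034-71025109 (-) and chr17:21949281-21949356 (+) had N of 1. None of the 7 was at a named gene in the file. The nuclear genome is known to carry copies of mitochondrial sequence, and whether these 6 places are such copies was not tested. Another 8mer, at chr2:140694399-140694474 (-), paired the same bases of miR-21-5p but with a different arrangement of the target. It had N of 1 and an MFE of -22.1, and was not counted among the 7. No other duplex of miR-21-5p was predicted at more than 2 places.

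Among the other interactions with N of at least 3, chrM:2379-2454 (+) had N of 6, a match of 5 bases and an MFE of -11.5. chrM:12549-12624 (+) had N of 3 and a 6mer (MFE -17.8), and chrM:10880-10955 (+) had N of 3 and a 6mer with the mismatch T6T (MFE -13.3). Only 1 lay at a gene, in an intron of NR1H4, the bile acid receptor of liver cells, at chr12:99462167-99462242 (+), with N of 3. That duplex had 0 paired seed bases, although the file lists a short seed match with the mismatch C4A there. Beyond the seed, 8 bases in a row were paired (class 4, MFE -17.2), shown in capitals.
miR-21-5p at NR1H4: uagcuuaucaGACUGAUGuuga

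**Figure D4:**
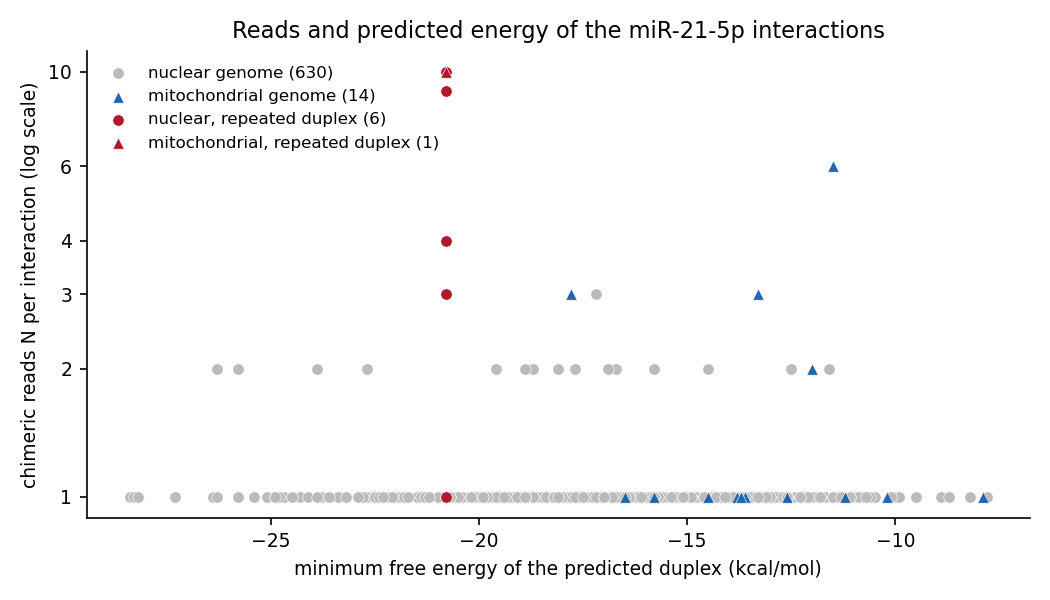
Chimeric reads N per interaction (log axis) against the MFE of the predicted duplex (kcal per mol) for the 651 interactions of miR-21-5p. Triangles are on the mitochondrial genome, and red marks the 7 places with the repeated duplex at -20.8, of which the mitochondrial one and one nuclear one overlie each other at N of 10.

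On the mitochondrial genome miR-21-5p had 15 interactions (2.30%, 1.40 to 3.77), against 756 of the others (2.36%). The adjusted p was 1 (Fisher's exact test, where 9.64% of 83 miRNAs were called higher and 4.82% lower). Of its reads, 34 of 710 were there (4.79% against 3.55%). All 15 of these places overlapped those of other miRNAs on the same strand, as did 72 of 636 nuclear places. For other miRNAs the overlap of mitochondrial places was not computed, so the 15 cannot be read as a trait of miR-21-5p. Over both genomes, 87 of 651 target regions (13.4%, 11.0 to 16.2) overlapped one of another miRNA, against 12.9% of the others (adjusted p 0.86, where 9.64% were called higher and 15.7% lower). The overlaps involved 123 miRNAs, most often miR-17-5p at 20 places, miR-19a-3p and miR-27a-3p at 19 each and miR-196a-5p at 17. In all, miR-196a-5p had 335 interactions against 2480 of miR-17-5p. Of the miR-196a-5p regions, 21.2% overlapped one of any other miRNA, against 12.8% for the rest, and 7.16% against 2.31% were mitochondrial. Its overlap with miR-21-5p was not tested apart from these shares.

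At genes miR-21-5p had 427 interactions, at 398 genes, of which 373 had 1, 22 had 2, 2 had 3 and 1 had 4. The gene with 4 was MALAT1, a long noncoding RNA of the nucleus, each with N of 1 and none of them canonical, which were 4 of 47 interactions of any miRNA there. PPP6R3, a regulatory subunit of protein phosphatase 6, had 3 of 21, all in introns. ANKRD30BL had 3 of 81, also in introns and with 5 reads, and from 8 to 18 interactions of other miRNAs overlapped each of the 3 places. Among the genes with 2 interactions, those with the most reads were THRB, SNHG1 and SEPTIN9 with 3 reads each, and APOB, ASH1L, DAB1 and DLC1 followed in order of symbol with 2.

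THRB, the thyroid hormone receptor beta, had a 7mer-m8 with N of 2 in its 3′UTR at chr3:24135672-24135747 (-), with an MFE of -22.7 and 18 paired bases. SNHG1, a host transcript of small nucleolar RNAs, had a 7mer-m8 with N of 2 at chr11:62378670-62378745 (-), with an MFE of -19.6. At THRB 11 bases were paired beyond the seed and at SNHG1 8, as the capitals show.
miR-21-5p at THRB: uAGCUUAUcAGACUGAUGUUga
miR-21-5p at SNHG1: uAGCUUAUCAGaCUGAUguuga

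Of a list of 60 genes known as targets of miR-21-5p, 42 had an interaction with some miRNA, 178 interactions in all, and 7 had 1 of miR-21-5p each. This was 7 of 178 (3.93%, 1.92 to 7.89), beside 427 of 21978 interactions at all genes (1.94%, 1.77 to 2.13). Canonical matches made up 6 of those 7, beside 73 of the 427. The list was chosen with earlier results of these data known. Whether its genes had become known as targets through seed matches was not considered, and neither share was tested. The 7 are described in the order of their seed matches, each with N of 1.

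SOX5, a transcription factor, had an 8mer in its 3′UTR at chr12:23578186-23578261 (-), starting at position 68 (MFE -22.4). DDAH1, an enzyme that breaks down an inhibitor of nitric oxide synthases, had a 7mer-m8 in its 3′UTR at chr1:85559317-85559392 (-), and at -26.4 it had the lowest MFE of the 7. GLCCI1 had a 7mer-m8 in its 3′UTR (MFE -18.4). SMAD7, an inhibitor of TGF-beta signalling, had a 6mer in its 3′UTR (MFE -18.3). SPRY1, an inhibitor of RAS-ERK signalling, had a 6mer at chr4:124543094-124543169 (+), in a region labelled as coding sequence and 3′UTR, with 10 paired bases beyond the seed (MFE -22.3), and it was the 1 interaction of any miRNA at that gene. EIF4EBP2, a repressor of cap-dependent translation, had an offset 6mer in its 3′UTR (MFE -18.9). YOD1, a deubiquitinase, had a match in coding sequence listed as an 8mer with a bulged target G between positions 6 and 7 (MFE -16.0). In its predicted duplex position 6 formed a G:U pair, and the unpaired target base lay just before that position instead. The paired bases differed beyond the seed in these examples, with 10 for SOX5, 8 for DDAH1, 10 for SPRY1 and 7 for YOD1.
miR-21-5p at SOX5: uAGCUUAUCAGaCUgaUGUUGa
miR-21-5p at DDAH1: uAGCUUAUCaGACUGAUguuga
miR-21-5p at SPRY1: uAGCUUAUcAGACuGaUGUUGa
miR-21-5p at YOD1: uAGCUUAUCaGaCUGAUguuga

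The other 35 genes of the list with interactions had them with other miRNAs only. PDCD4, an inhibitor of translation initiation, had 1, TIMP3, an inhibitor of metalloproteinases, had 1, BTG2, an antiproliferative gene, had 4 and TGFBR2, a receptor of TGF-beta, had 15. No miRNA had an interaction at 18 of the genes, among them TPM1, RECK, SPRY2 and BCL2.

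In the 3′UTR or coding sequence miR-21-5p had 6 8mers, each with N of 1. Beside SOX5 they were at SMC5, part of a complex that maintains chromosomes, in coding sequence (MFE -19.4), and in the 3′UTRs of TGFBI, a secreted matrix protein (-19.0), KLF5, a transcription factor (-17.8), TPRG1L (-17.2) and VCL, the adhesion protein vinculin (-14.7). The other 3′UTRs with a canonical match, named here after their values were seen, included LIFR, PM20D2, TRAPPC13 and MED28 with a 7mer-m8, E2F3, RAN and GOLGA4 with a 7mer-A1, and NUFIP2 with a 6mer. Repeated reads in coding sequence, also named after the values were seen, were at BROX, TTLL3, EIF2S3 and IDI1, each with N of 2.

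Genes by pathway held few miR-21-5p interactions, near its share over all genes. Of 94 interactions in the PI3K and AKT list, 2 were of miR-21-5p (2.13%, 0.585 to 7.43), at EIF4EBP2 and in an intron of FOXO3, a transcription factor that AKT inactivates. The TGF-beta and BMP list had 2 of 96 (2.08%), at SMAD7 and in an intron of SMURF1, a ubiquitin ligase. In the cell cycle list there was 1 of 47 (2.13%), the 7mer-A1 in the 3′UTR of E2F3, a transcription factor of S phase entry (MFE -19.6). The apoptosis and p53 list had 0 of 63, which allows up to 4.76%.

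Of 230 interactions at secreted hepatocyte proteins, 6 were of miR-21-5p (2.61%, 1.20 to 5.57, an interval that holds the 1.94% over all genes), 2 at APOB, the protein of low-density lipoprotein, 2 at FN1, fibronectin, 1 at FGA, a chain of fibrinogen, and 1 at TTR, a carrier of thyroid hormone. Canonical matches were present at FGA (7mer-m8, MFE -13.4) and at 1 of the FN1 places (offset 6mer, MFE -25.1). Both of the interactions in the list of extracellular matrix remodelling, of 56, were those at FN1. The list of cholesterol and fatty acid metabolism had 2 of 184 (1.09%, 0.299 to 3.88), and that of RAS and ERK 2 of 109 (1.83%, 0.505 to 6.44), SPRY1 among them. In the former, IDI1, an enzyme of isoprenoid and cholesterol synthesis, had a 7mer-m8 with N of 2 in coding sequence (MFE -16.9). In the miRNA pathway list there were 2 of 95 (2.11%), at TNRC6A, a partner of AGO in silencing, and in an intron of XPO5, the exporter of miRNA precursors, neither canonical.

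At markers of other cell types few interactions of any miRNA were found. Of 27 hepatocyte genes 21 had interactions, 230 in all, whereas 3 of 15 neuronal markers had 8 and 2 of 17 glial, immune or fibroblast markers had 4. miR-21-5p had 0 at either, which allows up to 37.5% of the 8 and 75% of the 4. At the transcript that hosts MIR21 and at its neighbours there were 26 interactions of any miRNA and 0 of miR-21-5p, which allows up to 11.5%.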

How the data were processed

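The RNA bound to AGO in Huh-7.5 cells was sequenced in 31 libraries. Per the labels, the authors used CASAVA 1.8.2, Bowtie (version not given in the sources used here) and build hg18. By the methods, reads were searched for miRNAs allowing 1 mismatch, the remainder had to map to a single place, PCR duplicates were collapsed, and chimeras of the same miRNA at overlapping places were merged.

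The deposited table gives, per interaction and pooled over libraries, N, a raw count of individually cloned reads, and the deposited MFE, a score from RNAhybrid. Start and end of the 75-base target region, seed position, duplex map and k-means class were used as deposited. The file does not say whether coordinates count from 0 or 1, nor how genes were annotated. The table used here holds fewer interactions than the study counts in its text, and shares and ranks are of those in the table. Library depths were not used here, since no interaction can be traced to a library, so depth enters only as counts of interactions.

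The computation used scipy 1.17.1, pandas 2.3.3 and numpy 2.4.6 in Python 3.11.15, with matplotlib 3.10.9 for plots. For each of 83 miRNAs with at least 50 interactions, two-sided Fisher's exact tests compared the share of each seed group, class, region and paired position, of early seeds, repeated reads, shared places and, added after seeing the data, mitochondrial places with all other interactions. P-values were adjusted by Benjamini-Hochberg per family (threshold 0.05). Interactions at 1 place or gene are not independent. Intervals are 95% Wilson intervals, and 0 was given the limit of 3 counts, for counting error only. The tests were tested on simulated data.

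Gene symbols turned into dates, 60 in all and 3 of miR-21-5p, were restored from gene IDs through RefSeq (GRCh38.p14), which was used for names only. Of the 83 miRNAs, 70 matched a RefSeq sequence. Named were interactions with N of at least 3, the 10 genes with the most interactions, 8mers in 3′UTR or coding sequence, members of the gene lists, 5 miRNAs of similar profile and neighbours in rank. Members and lists were chosen with earlier results of these data known. Gene lists were written from general knowledge and got no test. A few results of these lists are not reported here.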

Additional observations from a re-analysis of the deposited data

How the results depend on the processing

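No paired analysis was possible because the table has no column of a library, and for the same reason no replicate could be left out. Of 25 called seed groups, classes and positions, 24 kept direction and call with 1 interaction per miRNA and gene, 24 against miRNAs with at least 50 interactions only, 23 without the mitochondrial genome, 24 with identical duplexes counted once (the last 2 chosen after seeing the data), 21 without shared places and 20 weighted by reads.

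At the unadjusted p threshold of 0.001, the calls fell from 5 to 2 for classes and from 9 to 3 for seed groups. In 3′UTRs alone (73 interactions) 0 classes and 0 seed groups passed, and 4 positions did, 3 of them as over all regions. With N of at least 2 (26 interactions) 0, 0 and 2 passed, 1 of the 2 positions as over all interactions. Fewer interactions entered both of these fits. Weighting by reads brought 1 region, the label downstream and upstream within 10 kb, past the threshold (2.11% against 0.749%), where 10 of its 15 reads were those of the mitochondrial place of the repeated duplex.

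Differences, in percentage points of miR-21-5p minus others, that changed sign with N of at least 2 were 6.26 for class 1, -10.5 for class 2, -7.08 for class 5B, 4.52 for the 8mer, 3.40 for the 7mer-m8, 1.67 for other short matches, -1.12 for no match, -18.0 at position 9 and -27.9 at position 18. The last passed (adjusted p 0.046). Weighted by reads, signs changed for the 8mer (0.288), position 18 (-0.0582) and the mitochondrial share (1.24). In 3′UTRs they changed for class 5A (4.57) and position 2 (1.05), without shared places for the 3′UTR share (0.418), and with Watson-Crick pairs alone for positions 3 (-3.66) and 18 (-3.89). Apart from what the text states, the cause was not tested.

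With 651 interactions, and 625 of them seen once, single genes rest on 1 or 2 reads.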
